A study of Mus musculus with 10 samples.

Results

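The regulators of Notch signalling and secretory fate were followed in mouse colonic organoids, cultures of colon epithelium that grow from crypt stem cells. They were the 10 genes Dll1, Dll4, Jag1, Notch1, Notch2, Hes1, Atoh1, Gfi1, Spdef and Foxa3, taken by gene symbol out of 18820 genes with a probe set that carried a single symbol. Each of the 10 had exactly 1 such probe set, and all 10 were tested among 23099 annotated probe sets. Donors were 6 male mice of C57BL/6J background, 3 of each genotype. The knockouts (KO) carried Pparg with loxP sites around exons 1 and 2 together with Villin-Cre, a recombinase under a promoter of the intestinal epithelium, and their wild-type littermates (WT) were the controls. Pparg encodes PPARγ, a nuclear receptor for lipids that rosiglitazone activates. Cultures were given 1 µM rosiglitazone or 0.1% DMSO (vehicle) for 24 h. The WT vehicle group had 2 arrays (mice 42 and 47), WT rosiglitazone 3 (mice 48, 42 and 47), KO vehicle 2 (mice 46 and 44) and KO rosiglitazone 3 (mice 46, 45 and 44). All cultures grew in Matrigel with Wnt, R-spondin, Noggin and EGF, and with inhibitors of TGF-β receptors and of p38, so these additions were shared by every group.

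Notch signalling lets neighbouring cells of the crypt take different fates. A cell that shows ligands of the Delta or Jagged families activates Notch receptors on its neighbour. The receptor's intracellular part is then cut free and acts with the DNA-binding protein RBPJ, which turns on Hes1, a repressor of Atoh1. Cells in which Atoh1 stays on become secretory, and Gfi1, Spdef and Foxa3 act downstream of it, Spdef and Foxa3 mainly in goblet cells, which make the mucin Muc2. In the adult colon, blocking Notch is known to turn proliferating crypt cells into goblet cells.

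The upstream sequences of 4 genes are shown because across the 10 arrays their levels went together (Atoh1, Spdef and Foxa3) or ran the other way (Jag1). Each is the 250 bases before the RefSeq gene start on the gene's own strand, build GRCm38.p6. Atoh1 lies on the plus strand (chr6:64728875-64729124), and Spdef (chr17:27728952-27729201), Foxa3 (chr7:19023540-19023789) and Jag1 (chr2:137116521-137116770) on the minus strand. Capitals mark matches to the motifs named after the sequences.
Atoh1: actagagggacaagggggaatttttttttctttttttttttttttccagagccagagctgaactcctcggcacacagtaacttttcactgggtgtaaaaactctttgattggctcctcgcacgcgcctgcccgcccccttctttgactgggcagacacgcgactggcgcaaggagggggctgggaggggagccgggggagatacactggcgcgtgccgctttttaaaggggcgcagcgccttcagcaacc
Spdef: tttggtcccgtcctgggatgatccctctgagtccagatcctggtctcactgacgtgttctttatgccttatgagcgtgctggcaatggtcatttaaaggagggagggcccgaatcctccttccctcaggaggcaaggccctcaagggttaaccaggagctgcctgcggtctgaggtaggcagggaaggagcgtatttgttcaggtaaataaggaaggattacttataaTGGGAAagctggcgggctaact
Foxa3: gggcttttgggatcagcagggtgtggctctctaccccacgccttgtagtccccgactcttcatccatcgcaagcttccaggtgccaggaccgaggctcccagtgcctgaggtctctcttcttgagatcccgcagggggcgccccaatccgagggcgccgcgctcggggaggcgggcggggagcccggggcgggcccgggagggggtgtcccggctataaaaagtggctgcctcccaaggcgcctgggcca
Jag1: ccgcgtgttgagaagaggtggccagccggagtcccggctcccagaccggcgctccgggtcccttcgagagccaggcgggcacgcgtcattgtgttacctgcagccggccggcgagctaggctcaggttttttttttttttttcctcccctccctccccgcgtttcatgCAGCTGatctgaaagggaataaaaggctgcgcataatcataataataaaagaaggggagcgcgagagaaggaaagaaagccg
Windows of this length were found for 9 of the 10 genes, 11 windows in all. They were searched on both strands for TGGGAA (the core of the site that RBPJ binds), CAGCTG (an E-box, the class of site bound by bHLH activators such as Atoh1, which reads the same on both strands) and CACNAG (an N-box, the class bound by Hes repressors). TGGGAA stood in 1 member window, that of Spdef, 22 to 17 bases before the start, against 21.6% of 32851 such windows of all genes. CAGCTG stood in 2 member windows, those of Jag1 and Dll1, against 13.0% of all windows. CACNAG stood in 3, those of Dll4, Notch1 and Notch2, against 36.7%. A match describes the letters only, and no binding was measured.

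Expression was read as log2 RMA levels, the authors' background-corrected, quantile-normalized summary of the probes of a probe set, on which a difference of 1 is a 2-fold change. An array gives no read depth, so precision depends on how many arrays each group has and on the spread of each probe set. The arrays correlated with each other at r of 0.985 to 0.997, and the 2 arrays of mouse 46 stood apart on the first principal component (-39.3 and -31.75, the other 8 from -4.1 to 19.6), so values that its omission moves are also given without it. Each of the 8 arrays whose mouse gave both treatments correlated best with the other array of that mouse. All 10 epithelial markers lay above the median probe set (4.51), though Cdx1 only just, at 4.55. The mean of the 10 was 10.02 to 10.31 by array. By contrast, 10 of 10 stromal, 8 of 8 endothelial and 6 of 7 immune markers lay below the median probe set. The exception was the macrophage marker Cd68 at 7.86. Of the colonic markers 3 of 5 were measured: Car1 was bright at 11.40, while the homeobox genes Hoxb13 (2.78) and Hoxd10 (2.72) lay below the median. So did 8 of 8 small intestinal markers. The Pparg probe set read 8.38 in WT vehicle and 8.52 in KO vehicle. Only exons 1 and 2 are floxed, and where the probe set lies relative to them is not known. It was therefore not used to check the deletion, and genotype directions rest on the labels. In whole cultures fewer cells of a type and less RNA per cell cannot be told apart.

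None of the 10 genes passed the test for an effect of drug or genotype. Limma was fitted to all 10 arrays with a mean for each group, and a probe set counted as called at a Benjamini-Hochberg adjusted p under 0.05. This fit treated arrays of the same mouse as independent. Its standard errors, intervals and p for the drug therefore do not use the pairing of treatments within mice. Of the 10 genes, 0 were called in any of the 5 comparisons. With mouse as a random or fixed block, 0 were called as well, though a fixed block gives no genotype comparison. The share of all 23099 probe sets called was 0% for rosiglitazone in WT, 0% for rosiglitazone in KO, 0% for KO against WT in vehicle, 0.0216% (5 probe sets) for KO against WT in rosiglitazone and 0% for the difference between the drug responses. At an unadjusted limma p under 0.05 these comparisons had 229, 706, 1314, 1110 and 536 probe sets, among them 0, 0, 1, 1 and 0 of the 10 genes. By mouse mean, Atoh1, Spdef, Foxa3 and Muc2 were each lowest in mouse 46 and highest in mouse 45. Mouse 45 gave a rosiglitazone array only, so for it mouse and drug cannot be told apart.

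**Figure D1:**
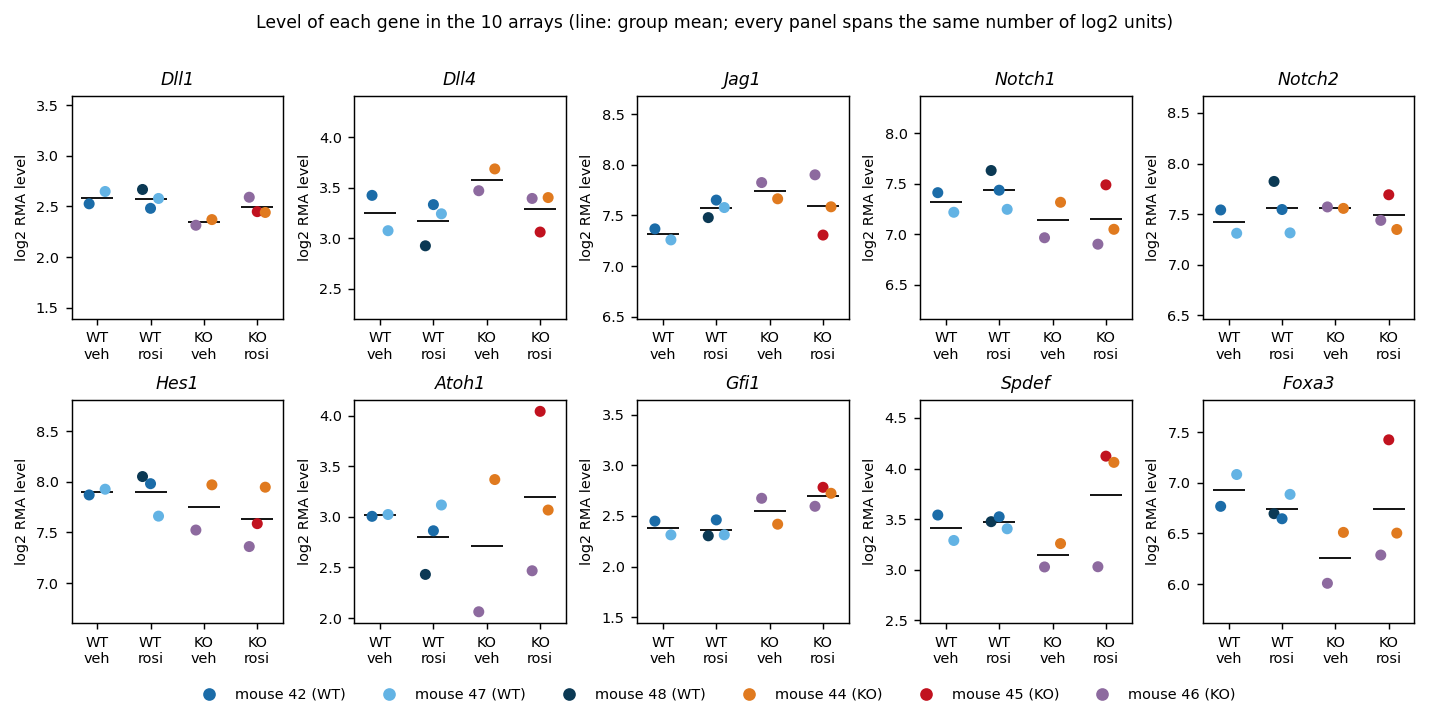
Log2 RMA level (vertical axis) of each of the 10 genes in the 10 arrays, by group (horizontal axis; veh, vehicle; rosi, rosiglitazone); each point is an array coloured by mouse and each line a group mean. Arrays of KO mouse 45 top Atoh1, Spdef and Foxa3, where the arrays of KO mouse 46 are at or near the bottom.

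Of the ligands, Dll1 and Dll4 were dim and Jag1 bright. Dll1, a Delta ligand expressed by early secretory cells, read 2.53 and 2.65 in WT vehicle, 2.67, 2.48 and 2.58 in WT rosiglitazone, 2.31 and 2.37 in KO vehicle and 2.59, 2.45 and 2.44 in KO rosiglitazone. Both KO vehicle arrays lay below the other 8. Its whole range was 0.35, and its SD over arrays was at the 11.9th percentile of all probe sets, the steadiest of the 10 genes.

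Dll4, the other Delta ligand of the crypt, read 3.42 and 3.08 in WT vehicle, 2.93, 3.33 and 3.24 in WT rosiglitazone, 3.47 and 3.69 in KO vehicle and 3.39, 3.06 and 3.40 in KO rosiglitazone. The KO vehicle arrays were the highest 2 of the 10, so Dll4 and Dll1 ran in opposite directions between the vehicle groups. Against WT vehicle, KO vehicle differed by 0.33 ± 0.20 (SE) for Dll4 and by -0.24 ± 0.14 for Dll1, with limma adjusted p of 0.858 and 0.855. Without mouse 46 these differences were 0.44 and -0.22.

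Jag1, a Jagged ligand, read 7.37 and 7.26 in WT vehicle, 7.48, 7.65 and 7.58 in WT rosiglitazone, 7.83 and 7.66 in KO vehicle and 7.90, 7.31 and 7.59 in KO rosiglitazone. WT vehicle lay below both WT rosiglitazone and KO vehicle without overlap. The rosiglitazone difference in WT was 0.26 ± 0.17 (adjusted p = 1), and within mice it was 0.28 in mouse 42 and 0.32 in mouse 47. The KO difference in vehicle was 0.43 (95% interval 0.02 to 0.84, unadjusted p = 0.0421, limma adjusted p = 0.855). It was 0.35 without mouse 46. Under rosiglitazone the 2 genotypes overlapped, with a difference of 0.03 ± 0.15, which was -0.12 without mouse 46 and 0.17 without the mouse 45 array.

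Neither receptor passed the test in any comparison. Notch1, which is needed with Notch2 to hold crypt cells back from the goblet fate, read 7.41 and 7.22 in WT vehicle, 7.63, 7.44 and 7.25 in WT rosiglitazone, 6.97 and 7.32 in KO vehicle and 6.90, 7.49 and 7.05 in KO rosiglitazone. The lowest 2 arrays were both from mouse 46. The KO difference was -0.17 ± 0.22 in vehicle and -0.29 ± 0.18 under rosiglitazone, and without mouse 46 these were 0.002 and -0.17. Without the mouse 45 array the rosiglitazone value was -0.46.

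Notch2 read 7.54 and 7.31 in WT vehicle, 7.82, 7.55 and 7.31 in WT rosiglitazone, 7.57 and 7.56 in KO vehicle and 7.44, 7.69 and 7.35 in KO rosiglitazone. Both WT arrays of mouse 47 were at 7.31, the lowest values, and mouse 48 gave the highest. The largest of the 4 differences between groups was 0.14, and the 95% interval of each included 0.

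Hes1, the repressor that Notch turns on, was the brightest of the 10 probe sets, at the 81.2nd percentile of mean level, which describes the probe set and not the amount of RNA relative to other genes. It read 7.87 and 7.93 in WT vehicle, 8.05, 7.98 and 7.66 in WT rosiglitazone, 7.52 and 7.97 in KO vehicle and 7.36, 7.59 and 7.95 in KO rosiglitazone. The 3 lowest arrays were from KO mice 46 and 45, while both arrays of KO mouse 44 lay within the WT range. The KO difference was -0.15 ± 0.22 in vehicle (95% interval -0.64 to 0.34) and -0.27 ± 0.18 under rosiglitazone (-0.67 to 0.14). Without mouse 46 these were 0.07 and -0.13. Rosiglitazone differed from vehicle by less than 0.01 in WT (interval -0.45 to 0.45) and by -0.12 ± 0.20 in KO, the latter -0.20 without mouse 46.

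Atoh1, the factor that commits a crypt cell to the secretory lineage, read 3.01 and 3.02 in WT vehicle, 2.43, 2.86 and 3.12 in WT rosiglitazone, 2.06 and 3.37 in KO vehicle and 2.47, 4.04 and 3.07 in KO rosiglitazone. Its lowest and highest arrays were both KO, mouse 46 in vehicle and mouse 45 under rosiglitazone. Its SD over arrays was at the 97.5th percentile of all probe sets. The KO difference was -0.30 ± 0.49 in vehicle and 0.39 ± 0.40 under rosiglitazone, and neither direction held when 1 mouse was left out. The first was 0.35 without mouse 46, and the second was -0.04 without the mouse 45 array and 0.75 without mouse 46. Rosiglitazone against vehicle gave -0.21 ± 0.45 in WT and 0.48 ± 0.45 in KO, and the latter was 0.05 without the mouse 45 array and 0.19 without mouse 46.

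Gfi1, a zinc-finger repressor that supports goblet and Paneth fates against the enteroendocrine fate, was dim. It read 2.45 and 2.31 in WT vehicle, 2.30, 2.46 and 2.31 in WT rosiglitazone, 2.67 and 2.42 in KO vehicle and 2.59, 2.78 and 2.72 in KO rosiglitazone. All 3 KO rosiglitazone arrays lay above all 5 WT arrays. Against WT rosiglitazone the difference was 0.34 (95% interval 0.07 to 0.61, unadjusted p = 0.0171), which did not pass the limma adjustment (0.957). It was 0.39 without mouse 46 and 0.30 without the mouse 45 array. The KO difference in vehicle was 0.17 ± 0.15, and 0.04 without mouse 46.

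Spdef, which drives goblet cell maturation, read 3.54 and 3.29 in WT vehicle, 3.48, 3.52 and 3.41 in WT rosiglitazone, 3.03 and 3.26 in KO vehicle and 3.03, 4.12 and 4.06 in KO rosiglitazone. The 5 WT arrays spanned 3.29 to 3.54, while the KO rosiglitazone arrays split, with mice 45 and 44 above every WT array and mouse 46 below. Rosiglitazone against vehicle in KO gave 0.59 ± 0.28 (95% interval -0.02 to 1.21, unadjusted p = 0.0577, limma adjusted p = 1), the largest drug difference of the 10 genes. Within mice, Spdef was 0.80 higher with the drug in mouse 44 and 0.002 higher in mouse 46. Mouse 45 had no vehicle array, and without mouse 45 the KO difference was 0.40. Without mouse 46 this difference was 0.83. The genotype difference of Spdef was -0.27 ± 0.31 in vehicle, and -0.16 without mouse 46. Under rosiglitazone it was 0.27 ± 0.25, and it was 0.08 without the mouse 45 array and 0.62 without mouse 46.

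Foxa3, a forkhead factor of goblet and enteroendocrine cells, read 6.77 and 7.08 in WT vehicle, 6.70, 6.65 and 6.89 in WT rosiglitazone, 6.01 and 6.51 in KO vehicle and 6.29, 7.42 and 6.50 in KO rosiglitazone. All KO arrays but that of mouse 45 lay below all WT arrays. In vehicle the KO difference was -0.67 ± 0.32 (95% interval -1.38 to 0.05, unadjusted p = 0.0656, limma adjusted p = 0.855), the largest genotype difference of the 10 genes, and it was -0.41 without mouse 46. Under rosiglitazone it was 0.00 ± 0.26, and it was -0.35 without the mouse 45 array and 0.22 without mouse 46. Rosiglitazone against vehicle gave -0.18 ± 0.30 in WT and 0.48 ± 0.30 in KO, the latter 0.14 without mouse 45.

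**Figure D2:**
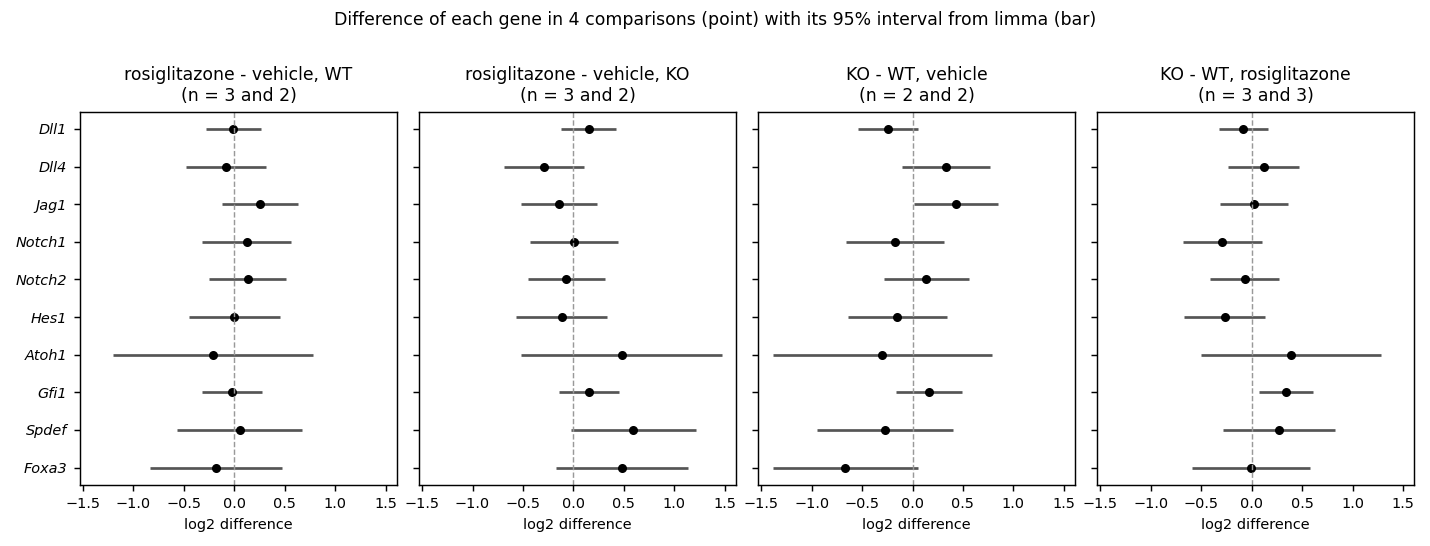
Log2 difference (horizontal axis, point) of each gene (vertical axis) with its 95% limma interval (bar) in 4 comparisons between groups of 2 or 3 arrays. The interval leaves out 0 only for Jag1 in KO against WT vehicle (0.02 to 0.84) and Gfi1 in KO against WT rosiglitazone (0.07 to 0.61), before any adjustment.

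As a group the 10 genes did not lean one way. Rosiglitazone against vehicle in WT gave 4 differences above 0 and 6 below (median -0.01, all probe sets 0.01), and in KO 6 above and 4 below (median 0.08, all -0.01). KO against WT gave 4 above and 6 below in vehicle (median -0.16, all 0.03) and 5 and 5 under rosiglitazone (median 0.01, all 0.00). Groups that did not overlap were read against the share of all probe sets. For rosiglitazone in WT there was 1 of 10 (Jag1; 15.4% of all probe sets) and in KO 2 of 10 (Dll1 higher, Dll4 lower; 13.7%). KO against WT in vehicle had 6 of 10, with Jag1, Dll4 and Notch2 higher and Foxa3, Spdef and Dll1 lower, where 39.1% of all probe sets with 2 arrays a side did not overlap. Under rosiglitazone there was 1 of 10 (Gfi1; 8.69%). Each group enters 2 of these 4 comparisons, so they share arrays.

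The difference between the drug responses, KO minus WT, was largest for Atoh1 (0.69 ± 0.63), Foxa3 (0.66 ± 0.42) and Spdef (0.54 ± 0.39), 3 of the 4 secretory factors. It was lowest for Jag1 (-0.40 ± 0.24). For all 10 the limma adjusted p was 1, and each 95% interval included 0, for Atoh1 from -0.72 to 2.09. KO mouse 45 enters these values on the drug side only; without its array the 3 values were 0.26 for Atoh1, 0.32 for Foxa3 and 0.35 for Spdef. Without mouse 46 they were 0.40 for Atoh1, 0.64 for Foxa3 and 0.78 for Spdef. In the 2 KO mice with both treatments, Atoh1 differed by 0.40 (mouse 46) and -0.30 (mouse 44), and Foxa3 by 0.28 and -0.01. In the 2 WT mice Atoh1 differed by -0.14 (mouse 42) and 0.09 (mouse 47), and Foxa3 by -0.12 and -0.20. With mouse as a fixed block the differences of responses were 0.08 ± 0.26 for Atoh1, 0.30 ± 0.18 for Foxa3 and 0.35 ± 0.27 for Spdef (limma adjusted p of 0.992, 0.977 and 0.98).

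**Figure D3:**
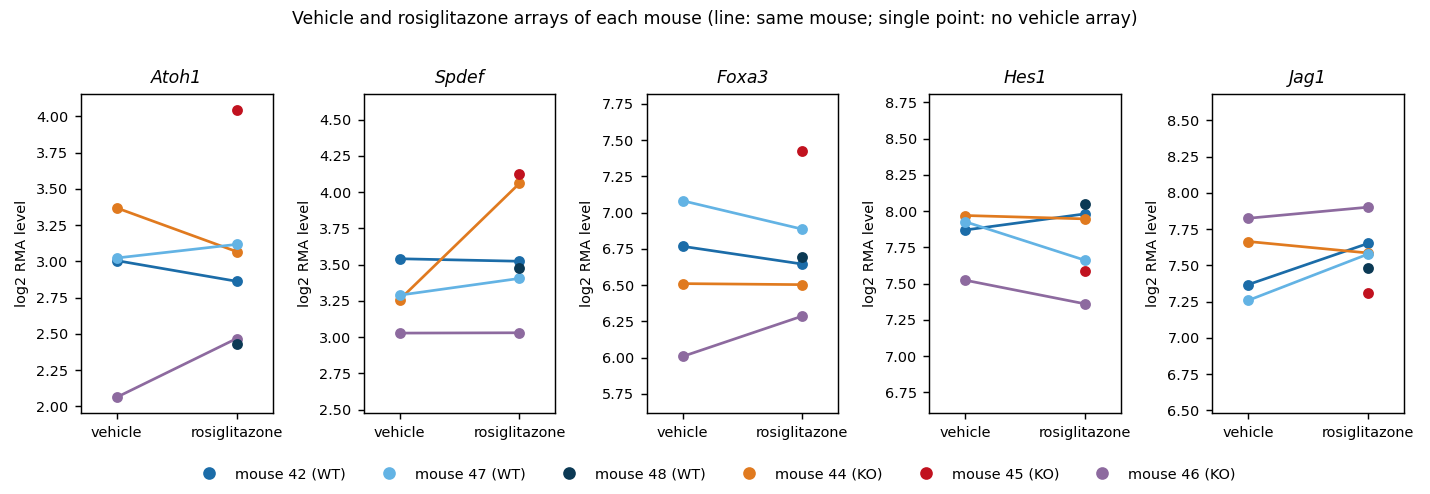
Log2 RMA level (vertical axis) of 5 genes in the vehicle and rosiglitazone arrays (horizontal axis) of each mouse, joined by a line where the mouse gave both; mice 45 and 48 gave a rosiglitazone array only. For Atoh1 and Foxa3 the mice differ more than the 2 ends of any line, while Spdef of mouse 44 is 0.80 higher with the drug and Jag1 is 0.28 and 0.32 higher in the WT mice.

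For 9 of the 10 genes, all but Dll1, the range of the 6 mouse means exceeded the largest treatment difference within a mouse. The share of all probe sets for which this holds was not computed. A range over 6 mice also spans more arrays than a difference within 1 mouse, so the count is a description and not a trait of these genes. Atoh1 ran from a mouse mean of 2.27 (mouse 46) to 4.04 (mouse 45), a range of 1.78, while its largest treatment difference within a mouse was 0.40. Foxa3 ran from 6.15 to 7.42 with a largest within-mouse difference of 0.28, in the same 2 mice. Spdef ran from 3.03 to 4.12, again in mice 46 and 45, with 0.80 within mouse 44. Jag1 had the opposite ends, 7.31 in mouse 45 and 7.86 in mouse 46. Hes1 was lowest in mouse 46 (7.44) and highest in WT mouse 48 (8.05). Mice 45 and 48 were each measured in 1 array, under rosiglitazone, so their values have no replicate. The means of the other mice average both treatments, so the range over mice mixes mouse with drug.

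Muc2, the main mucin of goblet cells, was among the most variable probe sets (SD at the 99.9th percentile). It read 6.15 and 5.03 in WT vehicle, 4.52, 6.03 and 4.69 in WT rosiglitazone, 3.71 and 5.60 in KO vehicle and 3.92, 8.47 and 6.59 in KO rosiglitazone. Over the 10 arrays, which come from 6 mice and so are not independent, Pearson r with Muc2 was 0.89 for Spdef and 0.87 for Atoh1. These 2 of the 10 genes had an r of at least 0.7, against 4.31% of all other probe sets, and 0 had an r of -0.7 or less, against 3.69%. Foxa3 had 0.68, Notch1 0.46, Gfi1 0.43, Hes1 0.22 and Notch2 0.17. Below 0 were Dll4 (-0.14), Dll1 (-0.22) and Jag1 (-0.59).

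Over the 6 mouse means, r with Muc2 was 0.96 for Spdef (exact permutation p = 0.00417) and 0.95 for Atoh1 (exact permutation p = 0.00694). Spearman's rho was 0.94 for both (exact permutation p = 0.0167). Adjusted over all probe sets by the Benjamini-Hochberg method both had 0.482, so neither passed; with 720 pairings the smallest possible p is 0.00139, and the smallest adjusted p of any probe set was 0.458. Foxa3 had 0.77 (exact permutation p = 0.0778) and Jag1 -0.67 (exact permutation p = 0.153), with adjusted values of 0.55 and 0.612.

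The relation rested partly on mice 45 and 46, which hold the 2 arrays farthest from the median of Muc2. Without those 2 arrays r was 0.77 for Spdef, 0.58 for Atoh1 and 0.04 for Foxa3, so that of Foxa3 was no longer seen, and it was -0.29 for Jag1. Over the means of the other 4 mice r was 0.74 for Spdef and 0.67 for Atoh1, but -0.57 for Foxa3 and 0.73 for Jag1, so the sign of the latter 2 rested on mice 45 and 46. After each array's group mean was taken off, r was 0.89 for Spdef, 0.85 for Atoh1, 0.73 for Foxa3 and -0.76 for Jag1. Leaving out single arrays kept Spdef between 0.82 and 0.92 and Atoh1 between 0.72 and 0.91. Hes1 had no stable sign, from -0.03 to 0.70 over the same omissions.

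**Figure D4:**
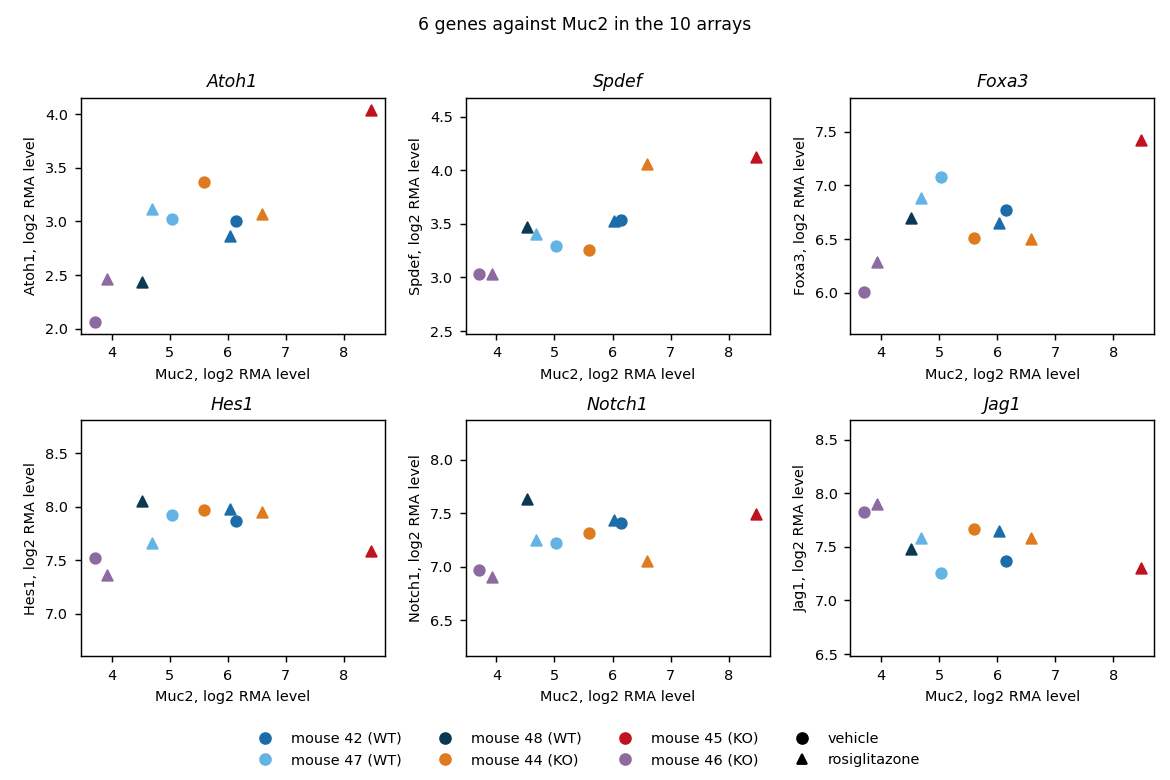
Log2 RMA level of 6 genes (vertical axes) against that of Muc2 (horizontal axis) in the 10 arrays, coloured by mouse, circles for vehicle and triangles for rosiglitazone. Spdef and Atoh1 are higher where Muc2 is higher (r of 0.89 and 0.87), Jag1 is lower (-0.59), and the arrays of mice 46 and 45 form the ends.

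Of the 4 secretory factors, Atoh1, Spdef and Foxa3 also went with the other products of goblet cells over the arrays. The mean of 15 goblet genes other than Muc2 correlated over the 10 arrays with Atoh1 at 0.93, with Spdef at 0.84 and with Foxa3 at 0.75, and without the mouse 45 array at 0.87, 0.74 and 0.51. For Gfi1 the values were 0.41 and -0.06. Muc2 itself had 0.95 with that mean. Of the 16 goblet genes 0 were called in any comparison by limma; for rosiglitazone 2 were above 0 and 14 below in WT (median -0.17), and 14 above and 2 below in KO (median 0.50). Without the mouse 45 array the KO counts were 12 and 4 (median 0.09), and within KO mice the mean of the 15 genes differed by 0.34 in mouse 44 and by -0.12 in mouse 46. In WT that mean read 4.88 in vehicle and 4.69 with the drug in mouse 42, and 4.76 and 4.72 in mouse 47. It was lowest, at 4.11, in the array of mouse 48, which had no vehicle array. The WT counts were not recomputed without mouse 48. The mean of 7 stem cell markers had r of 0.85 with Notch1 and 0.78 with Atoh1. Its r was also 0.80 with Muc2, 0.77 with Foxa3 and 0.68 with Spdef, so this was not particular to Atoh1. Without the mouse 45 array r was 0.85 with Notch1, 0.66 with Atoh1, 0.70 with Muc2, 0.65 with Foxa3 and 0.52 with Spdef. That with Hes1 was 0.56 over all arrays and 0.90 without that array. How far the makeup of the cultures accounts for these values was not tested.

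Among the 10 genes, the highest pairwise r was 0.80 between Atoh1 and Foxa3, followed by Atoh1 and Spdef at 0.69, Notch1 and Notch2 at 0.63, Notch1 and Foxa3 at 0.62 and Spdef and Foxa3 at 0.60. The lowest was -0.87 between Jag1 and Foxa3. Atoh1 and the repressor Hes1 had an r of 0.13 over the 10 arrays. It was -0.10 over the 6 mouse means and 0.31 after each array's group mean was taken off, so its sign was not stable.

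**Figure D5:**
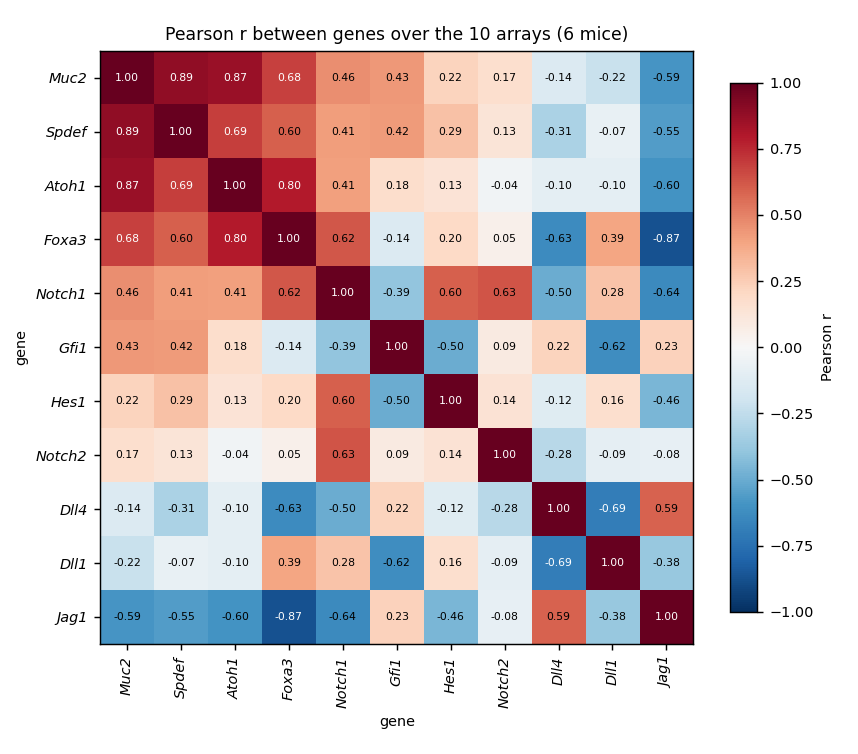
Pearson r (colour and printed value) between each pair of the 10 genes and Muc2 over the 10 arrays from 6 mice, both axes listing genes. Muc2, Spdef, Atoh1 and Foxa3 form a block with r of 0.60 to 0.89, and Jag1 has a negative r with each of them.

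By pattern over the 10 arrays, the genes most like Atoh1 among 18066 named genes were Mical1 (r = 0.96), Prkar2a (0.96), Adh1 (0.94) and Tcp1 (0.94). Those most like Hes1 were Ano3 (0.94), Rab12, Mras and Dhrs3 (each 0.92). These likenesses rest on 10 arrays of 6 mice and are descriptions only.

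Nor did the rest of the pathway pass. Of 85 listed ligands, receptors, processing enzymes, nuclear partners, targets and other secretory factors, 80 were measured and 0 were called by limma in any comparison; at an unadjusted p under 0.05 there were 0, 4, 2, 4 and 1 in the 5 comparisons. In the order used above, 39, 36, 34, 30 and 40 of the 80 lay above 0. The receptor Notch3 had the largest genotype difference of the 80 in both treatments. It read 5.89 and 5.64 in WT vehicle, 5.76, 5.83 and 5.60 in WT rosiglitazone, 4.96 and 5.17 in KO vehicle and 5.20, 4.91 and 5.25 in KO rosiglitazone, so all 5 KO arrays, from 3 mice, lay below all 5 WT arrays. The share of all probe sets that separate in this way was not computed. The genotypes did not overlap in 39.1% of all probe sets in vehicle and in 8.69% under rosiglitazone. Notch3 was picked for the size of its difference. The KO difference was -0.70 ± 0.17 in vehicle (unadjusted p = 0.00186, limma adjusted p = 0.796) and -0.61 ± 0.14 under rosiglitazone (0.00112 and 0.506). Notch3 is best known from the muscle cells of vessels. The stromal and endothelial marker lists had array means of 2.69 to 2.84 and of 2.41 to 2.59. Whether such cells bear on the Notch3 difference was not tested.

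Klf4, a factor of goblet cell differentiation, read 7.44, 7.50 and 7.34 in WT rosiglitazone and 6.65, 6.72 and 7.19 in KO rosiglitazone. The groups did not overlap (nor did those of 8.69% of all probe sets), and the difference was -0.57 ± 0.17 (unadjusted p = 0.00685, limma adjusted p = 0.88). The fringe enzyme Rfng, which modifies Notch receptors, had a difference of 0.68 ± 0.25 for rosiglitazone in KO (unadjusted p = 0.0187, limma adjusted p = 1). Maml2, a coactivator of the Notch complex, differed by -0.52 ± 0.21 in the same comparison and by 0.56 ± 0.23 for KO against WT in vehicle, values that share the KO vehicle arrays.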

How the data were processed

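RNA of 10 organoid cultures from 6 mice was hybridised to Affymetrix whole-transcript arrays, from 100 ng of total RNA each. The deposited table holds log2 expression values that the authors made with RMA, per the submitters' processing notes; the version and chip definition are not given in the sources used here. RMA forces arrays to like distributions and compresses differences of dim probe sets, which here include Atoh1, Dll1, Dll4, Gfi1 and Spdef (means below the median of 4.51). Of 35556 probe sets, the 23099 in the platform annotation were tested; 21218 carried 1 gene symbol and 1881 several, and genes were named only from the former.

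Tests used limma 3.58.1 in R 4.3.3 (lmFit with 4 group means, contrasts, eBayes; residual degrees of freedom 6, prior 4.39), two-sided, with Benjamini-Hochberg adjustment; the procedure was tested on simulated data. Errors are SE of the fit, and the main fit leaves out the pairing by mouse. Cultures of a group came from different mice, and the 2 treatments of a mouse share it. The labels give the donor of each array, so mouse pairs the treatments (differences between 2 mice correlated across treatments at r = 0.44 in wild type and 0.487 in knockout). Of the 4 replicate numbers shared within a genotype, 1 is the same mouse, so numbers were not used for pairing. Alternatives were a random or fixed mouse block, the 4 mice with both treatments, centring, repeated quantile normalization, a brightness filter, all probe sets, only the groups compared, and leaving out arrays. Correlations with Muc2 used exact permutation over mice.

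The 10 genes and all lists were chosen with earlier results of these data known. Named besides them are Muc2, up to 2 genes per list and comparison with the largest non-overlapping difference (or those called), and the 4 genes most like Atoh1 and Hes1. Of the listed genes that this rule names, those described were picked after their values were seen. Promoter windows are RefSeq's, build GRCm38.p6.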

Additional observations from a re-analysis of the deposited data

Results flagged for a closer look

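By sign alone, the drug response within mice ran in opposite directions in the 2 genotypes for 3 of the 10 genes, with 2 mice per genotype. The same held for 11.8% of all 23099 probe sets. Rosiglitazone minus vehicle for Dll1 was below 0 in both wild-type mice (mean -0.06) and above 0 in both knockout mice (mean 0.17), a difference of 0.23. For Notch1 it was above 0 in both wild-type mice (mean 0.03) and below 0 in both knockout mice (mean -0.17), a difference of -0.19. Notch2 had means of 0.004 and -0.17, a difference of -0.17. The wild-type responses of Notch1 and Notch2 lay close to 0, so their sign says little. With mouse as a fixed block, limma gave these differences unadjusted p of 0.215, 0.292 and 0.312 and adjusted p of 0.977, 0.98 and 0.98, and without the block the adjusted p was 1 for each, so none passed.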

How the results depend on the processing

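None of the 10 genes was called in any of the 5 comparisons under any alternative run. Of 895 recomputed differences 841 kept their direction and 54 changed it, and 30 of the 50 never did. Many of the 895 could not change. A difference of group means stays the same when an array of another group is left out. It also stays the same with only the groups compared, the brightness filter or all probe sets. The count therefore overstates how steady the directions were. The setting without both arrays of mouse 46 was added after seeing the data. A mean over a gene's probe sets changes nothing, since each gene has 1; a fixed mouse block gives no genotype comparison, and the brightness filter leaves out the 5 dim genes. Counts of probe sets called over the whole table were 0 for rosiglitazone in WT and for the difference of responses throughout, while the others moved. KO drug went from 0 to 1 with a random replicate block by mouse. KO against WT in vehicle went from 0 to 1 with that block, 6 in the 4 mice with both treatments, 2 with centring, 1 with repeated quantile normalization, 1 with the brightness filter, 4 with only the groups compared, and 0 to 6 when single arrays were left out. KO against WT in rosiglitazone went from 5 to 16 in the 4 mice, to 1 with quantile normalization, all probe sets, only the groups compared or without mouse 46, and to between 1 and 23 without single arrays (23 without the WT rosiglitazone array of mouse 48). The causes were not tested.

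In what follows, WT drug and KO drug are rosiglitazone against vehicle in that genotype, and vehicle genotype and rosiglitazone genotype are KO against WT under that treatment. With the replicate block Notch1 in KO drug was -0.069 (random) and -0.17 (fixed, and in the 4 mice); in WT drug Dll4 was 0.038 and Gfi1 0.0064 with the fixed block and in the 4 mice, and Atoh1 in rosiglitazone genotype was -0.22 in the 4 mice. Centring gave, in WT drug, Hes1 0.043, Dll1 0.033 and Gfi1 0.022, and in rosiglitazone genotype Dll1 0.0039, Notch2 0.018 and Foxa3 0.082; quantile normalization gave Hes1 0.011 in WT drug and Foxa3 0.023 in rosiglitazone genotype. Without mouse 46, Notch1 in KO drug was -0.047, in vehicle genotype Atoh1 was 0.35, Hes1 0.072 and Notch1 0.0018, and in rosiglitazone genotype Jag1 was -0.12 and Foxa3 0.22. Without single arrays the ranges were, in WT drug, Hes1 -0.077 to 0.12, Dll1 -0.072 to 0.050, Dll4 -0.26 to 0.092, Gfi1 -0.089 to 0.047 and Spdef -0.073 to 0.18; in KO drug, Hes1 -0.34 to 0.11, Notch1 -0.17 to 0.18, Notch2 -0.17 to 0.00093 and Atoh1 -0.18 to 1.13; in vehicle genotype, Atoh1 -0.95 to 0.35, Hes1 -0.37 to 0.072 and Notch1 -0.35 to 0.0018; in rosiglitazone genotype, Jag1 -0.12 to 0.17, Foxa3 -0.35 to 0.22, Atoh1 -0.036 to 0.75, Notch2 -0.19 to 0.063 and Dll4 -0.0015 to 0.23; and for the difference of responses, Hes1 -0.34 to 0.11 and Notch1 -0.29 to 0.058.

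The r with Muc2 changed sign for Hes1 over 6 mouse means (-0.050), without mouse 46 (-0.50) and without single arrays (-0.026 to 0.70), for Dll4 without the 2 farthest arrays (0.42), without mouse 46 (0.071) and without single arrays (-0.34 to 0.22), and for Notch2 as Spearman's rho (-0.030), without the 2 farthest arrays (-0.10), with centring (-0.057) and without single arrays (-0.18 to 0.44). Over 4 mouse means without mice 45 and 46, also added after seeing the data, it was -0.064 for Hes1, 0.95 for Dll4, -0.35 for Notch2, -0.49 for Notch1, 0.73 for Jag1 and -0.57 for Foxa3. The r of Spdef and Atoh1 kept its sign under every alternative run. With 2 or 3 arrays a group, 95% intervals of the dim, variable genes are wide, and a value that missed the threshold does not show that levels were alike.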

Other observations

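Genes of absorptive cells, which the Notch pathway favours over secretory ones, gave the largest single difference among the lists that were read beside the 10 genes. Slc9a3, the sodium-proton exchanger of the absorptive surface, was 3.08 ± 0.53 lower in knockout than in wild-type vehicle (difference -3.08, unadjusted p = 0.000158, limma adjusted p = 0.363). Under rosiglitazone the genotypes overlapped, with a difference of -0.57 ± 0.44. Rosiglitazone against vehicle gave -1.15 ± 0.49 in wild type and 1.36 ± 0.49 in knockout, a difference of responses of 2.51 ± 0.69 (unadjusted p = 0.00427, limma adjusted p = 1 for all 3). Slc5a8, a carrier of short-chain fatty acids, was higher in knockout than in wild type under rosiglitazone by 1.28 ± 0.31 (unadjusted p = 0.00191, limma adjusted p = 0.602). For knockout against wild type, Car1 differed by -0.87 ± 0.25 in vehicle (unadjusted p = 0.00505, limma adjusted p = 0.846). Under rosiglitazone it differed by -0.57 ± 0.20 (0.0167 and 0.957). In that contrast 2 of the 10 absorptive genes lay above 0 and 8 below in vehicle. Under rosiglitazone 3 lay above and 7 below, so Slc5a8 ran against most of its list. Of the 10 absorptive genes, 0 were called in any comparison, with 1, 1, 2, 2 and 1 at an unadjusted p under 0.05 in the 5 comparisons.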
